A study of Mus musculus with 18 samples.

Results

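The Toll-like receptor genes of the mouse were followed through LPS and TNF stimulation in macrophages of 2 genotypes. The members are the 10 rows of the count table whose gene identifiers map to Tlr1, Tlr2, Tlr3, Tlr4, Tlr5, Tlr6, Tlr7, Tlr8, Tlr9 and Tlr13, out of 45706 genes in the table. They were taken by symbol, with earlier results of these data known, and all 10 passed the filter on low counts. Tlr11 and Tlr12, the other Toll-like receptor genes of the mouse, had 22 and 15 reads in all 18 libraries together and are not considered further.

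Toll-like receptors are membrane proteins that recognise conserved microbial molecules and start inflammatory signalling. TLR1, TLR2, TLR4, TLR5 and TLR6 act mainly at the cell surface, where they bind bacterial lipoproteins, lipopolysaccharide or flagellin, and TLR3, TLR7, TLR8, TLR9 and TLR13 act in endosomes, where they bind nucleic acids. Nearly all signal through the adaptor MyD88, TLR3 through TRIF and TLR4 through both, and these pathways activate the transcription factor NF-kappaB, of which RelA is a subunit, while TRIF also leads to type I interferon.

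The samples were 18 polyadenylated RNA libraries of primary bone marrow-derived macrophages from C57BL/6 mice, 9 from wild-type (WT) mice and 9 from RelA-TA-KI mice, which carry a knock-in at Rela. Cells of each genotype were left unstimulated or were given LPS (100 ng/ml, a ligand of TLR4) or TNF (10 ng/ml, a cytokine with its own receptors) for 0.5, 1, 3 or 8 h, with 1 library per genotype and condition. All cells had been grown with 30% medium conditioned by L929 cells, a source of the macrophage growth factor CSF1, and were used on day 7, and the labels give an age of 12 days for every sample without saying what it counts from. The labels do not say how many mice were used, whether animals were pooled or which bases the knock-in changes, and p-values measure only the spread between these libraries.

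Total counts ran from 4663650 to 6721917 per library, and the 10 genes took 0.103% to 0.211% of them. Rela, the targeted gene, was at 62.5 to 283 CPM (counts scaled to library size, here with TMM factors) in WT and 67.4 to 181 in RelA-TA-KI libraries, which overlap. By edgeR's quasi-likelihood test over the 9 conditions it was lower in RelA-TA-KI (log2 difference -0.20 ± 0.06 (SE), adjusted p = 0.049), where 19.7% of all genes passed. Unstimulated and at 0.5 h of LPS it was higher in RelA-TA-KI (67.4 against 62.5 and 82.4 against 79.4 CPM), and in the other conditions lower. The same test did not pass for Rela after LPS alone (adjusted p = 0.09) or after TNF alone (adjusted p = 0.31). A count of Rela does not check a knock-in that changes the protein. The macrophage markers Adgre1, Csf1r, Cd68 and Itgam were present in every library, with lowest levels of 619, 484, 1276 and 327 CPM. Of 6 plasmacytoid dendritic markers, Siglech, Ccr9, Spib and Cox6a2 stayed at or below 2.95, 1.94, 1.98 and 2.29 CPM. Tcf4 (62.4 to 399.8 CPM) and Irf8 (63.5 to 733 CPM), which other myeloid cells also express, rose with LPS (2.03 and 2.42 on the log2 scale). The sum of the 6 ran from 138 to 612 CPM in WT and from 169 to 1138 in RelA-TA-KI, and its part in the results was not tested. Xist was at 535 to 886 CPM in all 18 libraries and did not pass the test between the genotypes (0.01 on the log2 scale), which bears on the X-linked Tlr7, Tlr8 and Tlr13. The Y-linked genes Ddx3y, Uty, Kdm5d and Eif2s3y had at most 2 reads in any library of either genotype.

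Levels of different genes were compared per length, as TPM (counts per base of exonic length, scaled to the same sum in each library). In unstimulated cells Tlr13, an endosomal receptor for bacterial ribosomal RNA, was highest at 389 TPM in WT and 404 in RelA-TA-KI. Tlr7, a receptor for single-stranded RNA, followed at 215 and 231 TPM, and Tlr4, the LPS receptor, at 128 and 143. Tlr8 (79.0 and 87.8), Tlr2 (73.2 and 50.1) and Tlr1 (30.1 and 37.1) came next. Tlr9 (17.2 and 24.4) and Tlr6 (18.5 and 22.4) overlapped, and Tlr3 (11.7 and 10.1) and Tlr5 (3.70 and 2.67) were lowest. Apart from Tlr9 and Tlr6, neighbours in this order did not overlap between the 2 libraries of each gene. By coding length, Tlr7 and Tlr4 and also Tlr8 and Tlr2 overlapped.

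The make-up of the receptor transcripts differed between stimulated libraries of the 2 genotypes. Tlr2 supplied 7.58% of the summed TPM of the 10 genes in unstimulated WT cells and 4.95% in unstimulated RelA-TA-KI cells. After 3 h of LPS its share was 66.2% in WT and 16.3% in RelA-TA-KI, and after 3 h of TNF 57.1% and 16.6%. In RelA-TA-KI cells Tlr7 held the largest share after 3 h of LPS (28.5%) and Tlr13 after 3 h of TNF (31.7%). After 8 h of LPS Tlr7 led in both genotypes, with 24.6% in WT and 29.8% in RelA-TA-KI, and Tlr3 had gone from 1.21% to 16.3% and from 1.00% to 18.5% of the sum.

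**Figure D1:**
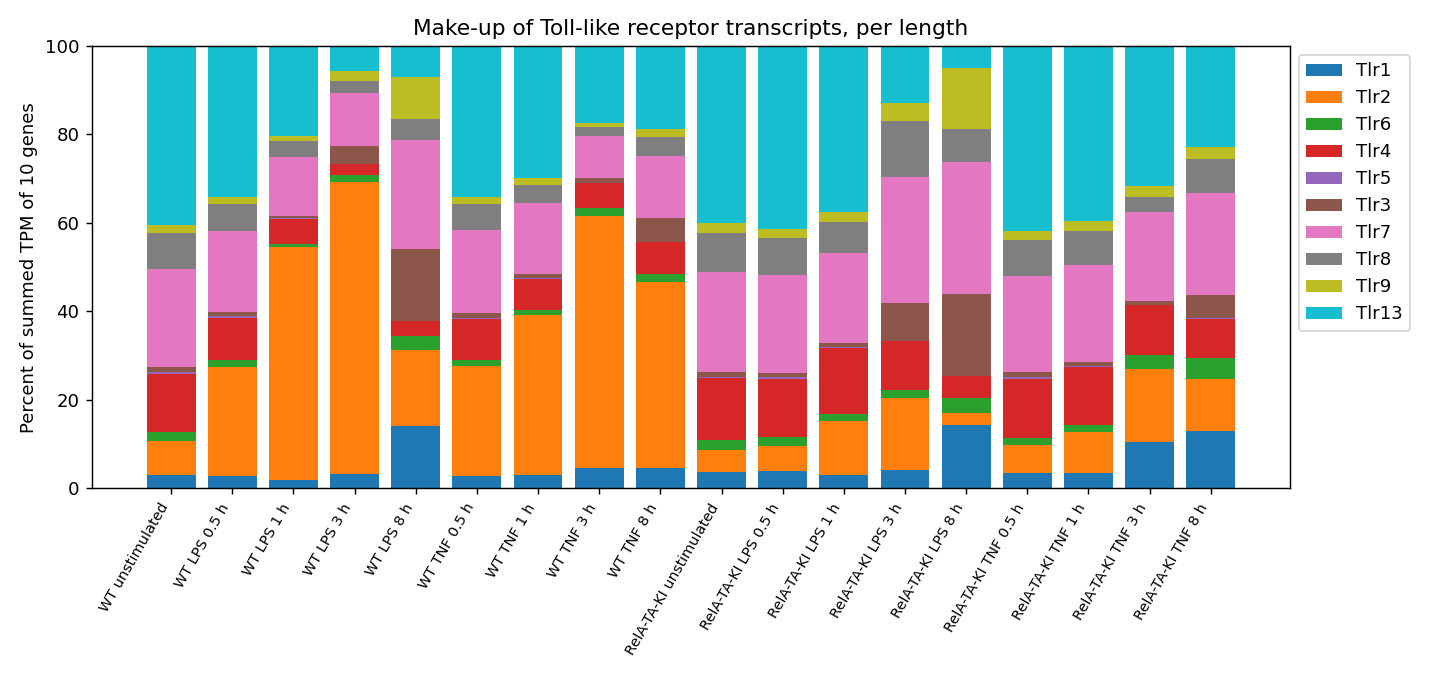
Each bar is 1 library and shows the percent of the summed TPM of the 10 Toll-like receptor genes taken by each gene. The orange part is Tlr2, which takes 66.2% of the WT bar and 16.3% of the RelA-TA-KI bar at 3 h of LPS.

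LPS changed most of the receptor genes. In the F test over the 4 LPS times, with both genotypes together, 7 of the 10 rose and 2 fell, where 72.2% of the 11308 genes tested passed (35.8% up and 36.4% down), so a call by itself does not set these genes apart. Direction and size are taken at the time of the largest change, and the median over the 10 genes was 2.20 on the log2 scale against -0.20 over all genes. TNF raised 4 and lowered 3 of the 10, with a median of 0.06 against -0.08 over all genes, and 30.4% of all genes passed (16.7% up and 13.6% down). Without the 8 h TNF libraries 4 in place of 7 were called for TNF. By time, 0, 1, 8 and 9 of the 10 were called at 0.5, 1, 3 and 8 h of LPS, against 0.92%, 6.84%, 47.6% and 67.7% of all genes. For TNF the numbers were 0, 0, 5 and 6, against 0.38%, 1.07%, 13.5% and 31.9%. Of the calls at 3 h of TNF, that of Tlr5 (-1.67) rests on 7 reads in each library. It was lost with limma-voom (adjusted p = 0.057) and without the 0.5 h LPS or the 0.5 h TNF libraries (adjusted p = 0.051 for each, edgeR). Of the calls at 3 h of LPS, that of Tlr6 (0.77) was lost with library totals (0.23, adjusted p = 0.44, edgeR). It was also lost with no filter (adjusted p = 0.093, edgeR) and with limma-voom (adjusted p = 0.052). Without the 8 h LPS libraries the largest LPS changes were those at 3 h (1.20 for Tlr1, 3.51 for Tlr3, 0.76 for Tlr6, 0.78 for Tlr7 and 1.56 for Tlr9) and of the 9 called members all but Tlr8 still passed. The LPS and TNF responses share the unstimulated libraries. With scaling by library totals in place of TMM, the median of all genes moved by -0.95 at 8 h of LPS, and the calls became 6 up and 3 down for LPS and 4 up and 4 down for TNF, against 86.9% and 36.9% of all genes. Fewer cells of a type and less RNA per cell cannot be told apart in these bulk samples.

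**Figure D2:**
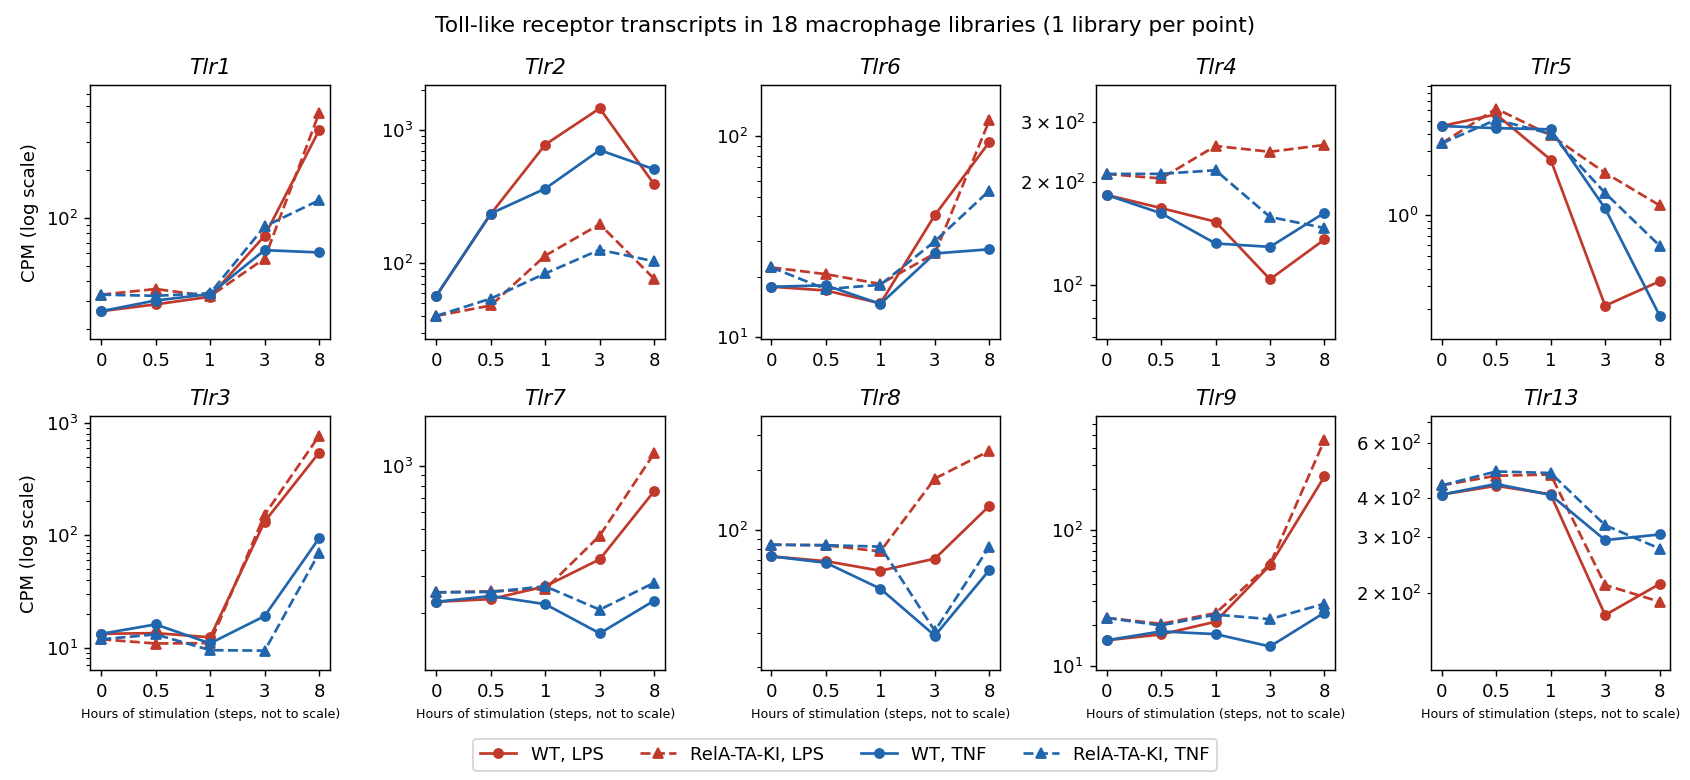
CPM on a log scale in each of the 18 libraries against hours of stimulation, with 1 panel per gene, red for LPS, blue for TNF, solid lines for WT and dashed lines for RelA-TA-KI. The dashed Tlr2 lines stay at or below 197 CPM while the solid LPS line reaches 1462, and Tlr3 and Tlr9 reach their highest levels at 8 h of LPS in both genotypes.

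Tlr2 encodes the receptor subunit shared by the TLR1-TLR2 and TLR2-TLR6 lipoprotein receptors, and it lies at chr3:83836272-83841767 on the minus strand of mm10. The bases just before this span are shown because of the 10 members this gene differed most between the genotypes and they hold a match to the kappaB consensus, the sequence that NF-kappaB binds. The stretch (chr3:83841768-83841858, minus strand) runs 5′ to 3′ along the gene and ends where the span begins, and capitals mark the match.
Tlr2: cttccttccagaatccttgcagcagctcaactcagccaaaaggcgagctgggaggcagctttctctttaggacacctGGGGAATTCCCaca
The capitals hold 2 overlapping matches, GGGGAATTCC and GGGAATTCCC, which together span -173 to -163, counted from the RefSeq start, which lies inside the span above. Sequences are from RefSeq (GRCm38.p6, the assembly behind mm10), which had windows for 8 of the 10 genes, and 250 bases before each RefSeq start were searched on both strands. The kappaB consensus matched 7.25% of 32851 such windows over all genes. Tlr3 was the other member with a match, GGGAGTTTCC, at -211 to -202, within an exon of a longer annotated transcript. A match is a description of the letters and no evidence of binding.

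In WT cells Tlr2 was at 56.9 CPM unstimulated, at 235, 781, 1462 and 391.8 CPM after 0.5, 1, 3 and 8 h of LPS, and at 236, 364, 709 and 509 CPM after the same times of TNF. In RelA-TA-KI cells it was at 40.2 CPM unstimulated, at 48.1, 114, 197 and 76.2 CPM with LPS, and at 54.2, 83.8, 126 and 103 CPM with TNF. All 8 stimulated WT libraries lay above all 9 RelA-TA-KI libraries, and within each genotype every stimulated library lay above the unstimulated one. With library totals the RelA-TA-KI library at 8 h of LPS (43.2 CPM) lay below the unstimulated one (46.5). Tlr2 was the only receptor gene called by 1 h of LPS (log2 change 2.57 ± 0.46, adjusted p = 0.0077, edgeR), where 6.84% of all genes were called, and it reached 3.42 ± 0.47 at 3 h (adjusted p = 0.00018). It then fell by 8 h (-1.67 ± 0.43 from 3 h, adjusted p = 0.008). With TNF it rose by 2.55 ± 0.46 at 3 h (adjusted p = 0.0057) and the change from 3 to 8 h did not pass (-0.39 ± 0.41). These fits average genotypes whose single libraries differ, with 25.7-fold in WT and 4.89-fold in RelA-TA-KI at 3 h of LPS and 12.5-fold and 3.14-fold at 3 h of TNF. The 8 h LPS value of 1.75 was 0.81 with library totals and no longer passed.

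Tlr1 and Tlr6 encode the partners of TLR2 and lie beside each other on chromosome 5, at 64924679 to 64933563 and 64952031 to 64960097. Of the distinct stretches of 50 bases, the read length, in the transcripts of Tlr1, 15.4% also occur in other genes (454 stretches with Tlr6), and for Tlr6 the share was 12.3%. How such reads were counted is not given in the sources used here, and the split of counts between these genes is uncertain. A window inside Tlr6, before the start of a shorter annotated transcript, holds a pair of overlapping matches to the core of the interferon-stimulated response element (GAAA, any pair of bases, GAAA), here on the other strand. It is shown, with the matches in capitals, because it was the only 1 of the 10 windows of members with such a match (chr5:64959167-64959416, minus strand).
Tlr6: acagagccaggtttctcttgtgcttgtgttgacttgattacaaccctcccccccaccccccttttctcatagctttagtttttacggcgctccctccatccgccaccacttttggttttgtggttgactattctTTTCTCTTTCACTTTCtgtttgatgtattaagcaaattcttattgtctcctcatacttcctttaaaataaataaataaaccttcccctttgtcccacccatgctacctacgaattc
The matches lie at -116 to -107 and -110 to -101, and 2.98% of windows over all genes hold one. The other window of Tlr6, across the start of its span (chr5:64960049-64960298), holds no match to any motif searched. Among members whose windows hold no such match, Tlr3 (5.71), Tlr9 (4.19) and Tlr1 (3.78) rose more than Tlr6 (2.42) at 8 h of LPS. Tlr2 (1.75) and Tlr8 (1.23) rose less, and Tlr5 and Tlr13 fell. The part of the match in these log2 changes was not tested. The other motifs searched were the GAS element (TTC, any 3 bases, GAA), in Tlr1 and Tlr8 and in 7.02% of windows, the PU.1 motif, in Tlr1 and in 2.44%, and the AP-1 site given with Tlr9.

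Tlr1 was at 26.0 CPM in unstimulated WT cells, at 28.7, 32.0, 77.1 and 354 CPM along the LPS times, and at 30.3, 33.3, 62.8 and 60.7 CPM along the TNF times. The RelA-TA-KI libraries were at 33.0 CPM unstimulated, at 35.8, 32.3, 55.6 and 454 CPM with LPS, and at 32.5, 33.7, 88.4 and 129 CPM with TNF. The 0.5 and 1 h libraries stayed near the unstimulated ones, and the 8 h LPS libraries were the highest of both genotypes. The log2 rise of Tlr1 was 3.78 ± 0.28 at 8 h of LPS (adjusted p = 2e-07) and 1.65 ± 0.27 at 8 h of TNF (adjusted p = 0.00064).

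Tlr6 was at 17.8 CPM in unstimulated WT cells, at 17.1, 14.7, 40.5 and 93.7 CPM with LPS and at 18.1, 14.6, 26.1 and 27.4 CPM with TNF. The RelA-TA-KI libraries were at 22.2 CPM unstimulated, 20.6, 18.4, 26.1 and 120.2 CPM with LPS and 17.3, 18.2, 30.0 and 53.7 CPM with TNF. As for Tlr1, the highest library of each genotype was the one at 8 h of LPS. Tlr6 rose by 2.42 ± 0.25 at 8 h of LPS (adjusted p = 2.7e-06) and by 1.00 ± 0.26 at 8 h of TNF (adjusted p = 0.01), and its TNF call was lost without the 8 h TNF libraries (0.49, adjusted p = 0.1).

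Tlr4, whose product with MD-2 and CD14 binds LPS itself, was at 183 CPM in unstimulated WT cells, at 168, 153, 104 and 136 CPM with LPS, and at 162, 132, 129 and 162 CPM with TNF. In RelA-TA-KI cells it was at 211 CPM unstimulated, at 205, 255, 245 and 257 CPM with LPS, and at 211, 217, 158 and 147 CPM with TNF. The LPS libraries at 1, 3 and 8 h lay below the unstimulated library in WT and above it in RelA-TA-KI, and all 4 RelA-TA-KI libraries with LPS were above all 4 WT ones. With library totals the RelA-TA-KI libraries at 3 and 8 h of LPS (193 and 146 CPM) also lay below the unstimulated one (245). With both genotypes together the LPS response did not pass (largest change -0.26 at 3 h, adjusted p = 0.86), nor did the TNF response (-0.47 at 3 h, adjusted p = 0.59). With library totals the LPS response passed (-1.03 at 8 h, adjusted p = 0.01).

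Tlr5, the flagellin receptor, was near the limit of detection, with 1 to 38 reads per library and 10 or more reads in 10 of 18 libraries. It was at 4.58 CPM in unstimulated WT and 3.41 in unstimulated RelA-TA-KI cells, and at 2.58 to 6.15 CPM in the stimulated libraries at 0.5 and 1 h. At 3 and 8 h the WT libraries held 0.213 and 0.323 CPM with LPS and 1.121 and 0.180 CPM with TNF, and the RelA-TA-KI libraries 2.06 and 1.18 CPM with LPS and 1.46 and 0.594 CPM with TNF. All 8 libraries at 3 and 8 h lay below all others. Both responses passed (adjusted p = 0.0013 for LPS), that to TNF only with the 8 h TNF libraries in the fit (adjusted p = 0.078 without them). A fitted size depends on the prior count where a library holds 1 read, as WT did at 8 h of LPS: there the ratio of 37 reads to 1, scaled by library, was 14.2-fold (95% exact interval 2.39 to 575, counting error only).

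**Figure D3:**
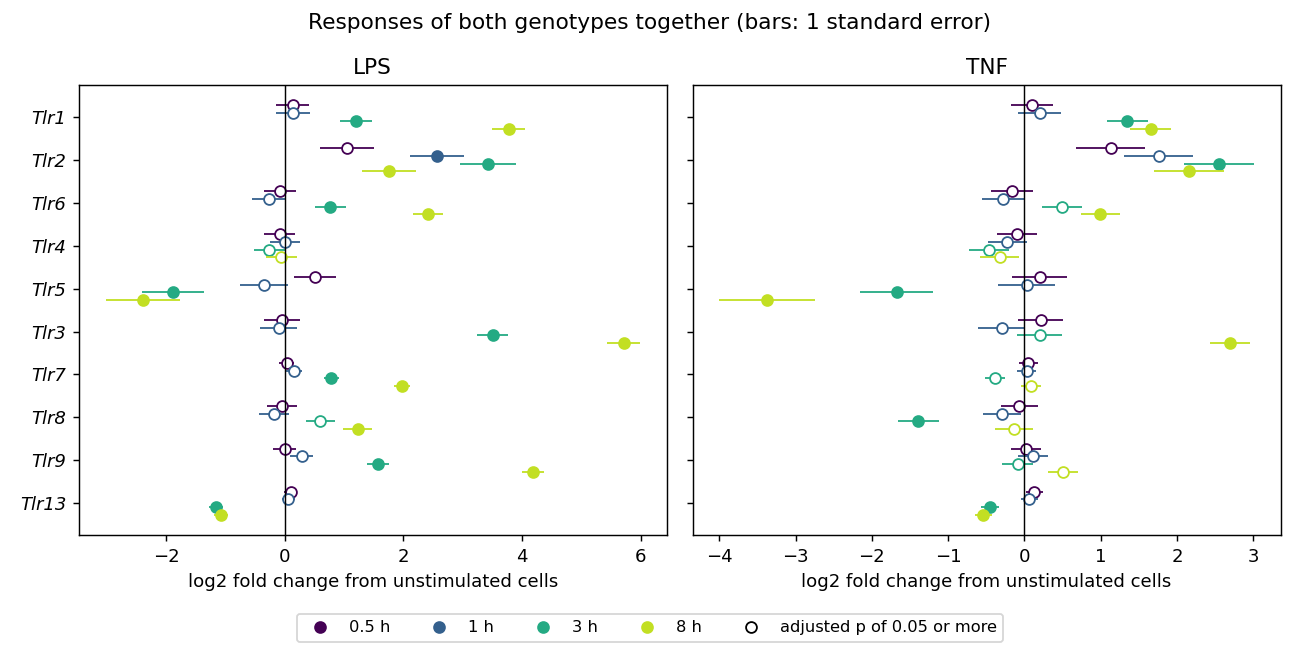
Log2 fold change from unstimulated cells for each gene and time, with both genotypes in 1 fit, for LPS (left) and TNF (right). Filled points passed the adjusted threshold, open points did not, and bars are 1 standard error, and Tlr3 at 8 h of LPS (5.71) is the highest point.

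Tlr3, the endosomal receptor for double-stranded RNA (chr8:45395665-45410608), had the highest fold change of the members. An annotated antisense gene that is not a row of the count table, Gm45542, overlaps its start, and 5.3% of the stretches of 50 bases of Tlr3 also occur there, so without a stated strand setting its reads may include some of that gene. It was at 13.2 CPM in unstimulated WT cells, at 13.4, 12.3, 132 and 541 CPM with LPS, and at 16.0, 10.9, 19.1 and 93.8 CPM with TNF. In the knock-in it was at 11.8 CPM unstimulated, at 10.9, 10.95, 152 and 764 CPM with LPS, and at 13.1, 9.47, 9.38 and 69.3 CPM with TNF. Libraries at 0.5 and 1 h stayed close to the unstimulated ones, the 3 h LPS libraries were far above them and the 3 h TNF libraries were not. Tlr3 rose 52.4-fold at 8 h of LPS (5.71 ± 0.28 on the log2 scale, adjusted p = 4.3e-09) and 6.47-fold at 8 h of TNF (2.69 ± 0.27, adjusted p = 1.2e-05). It stood at place 240 of 11308 genes by fold change in the LPS response. The TNF rise rests on the 8 h libraries, without which the largest change was -0.30 (adjusted p = 0.66).

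Tlr9, the endosomal receptor for DNA with unmethylated CpG (chr9:106222598-106226883, plus strand), was at 15.5 CPM in unstimulated WT cells, at 17.1, 21.2, 55.0 and 246 CPM with LPS, and at 17.96, 17.2, 13.9 and 24.7 CPM with TNF. In RelA-TA-KI cells it was at 22.6 CPM unstimulated, at 20.4, 24.5, 55.8 and 456 CPM with LPS, and at 19.9, 23.9, 22.1 and 28.7 CPM with TNF. The 3 and 8 h LPS libraries were above every other library, and the TNF libraries were not separated from the unstimulated ones. Tlr9 rose by 4.19 ± 0.18 at 8 h of LPS (adjusted p = 3.1e-10) and its TNF response did not pass (0.51 at 8 h, adjusted p = 0.15), although it did without the 8 h LPS libraries (0.50, adjusted p = 0.04). The bases before its start are shown as those of the member with the lowest adjusted p in the LPS response, and capitals mark TGACTCA, the AP-1 site, at -58 to -52, which 4.46% of all windows hold (chr9:106222348-106222597, plus strand).
Tlr9: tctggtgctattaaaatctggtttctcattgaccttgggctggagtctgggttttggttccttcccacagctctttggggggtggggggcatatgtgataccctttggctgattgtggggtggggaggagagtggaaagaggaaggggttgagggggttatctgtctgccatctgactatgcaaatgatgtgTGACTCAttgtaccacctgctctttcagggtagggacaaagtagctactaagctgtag

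Tlr7 (chrX:167304929-167330558) was at 226.0 CPM in unstimulated WT cells, at 233, 268, 359.5 and 758 CPM with LPS, and at 241, 220.2, 160.1 and 229 CPM with TNF. Knock-in cells held 251 CPM unstimulated, 253, 259, 466 and 1147 CPM with LPS, and at 252, 268, 207 and 278 CPM with TNF. The LPS libraries at 3 and 8 h were the highest of each genotype and the 3 h TNF library the lowest. Tlr7 rose by 1.98 ± 0.13 at 8 h of LPS (adjusted p = 1.6e-08). Its TNF response did not pass (-0.39 at 3 h, adjusted p = 0.06), but passed with library totals, with no filter and with limma-voom (adjusted p 0.0045, 0.034 and 0.044).

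Tlr8, next to Tlr7 on the X chromosome (167242696 to 167264329) and a related endosomal receptor for RNA products, was at 73.1 CPM in unstimulated WT cells, at 69.1, 61.8, 71.2 and 132 CPM with LPS, and at 67.9, 50.1, 29.0 and 62.3 CPM with TNF. In RelA-TA-KI cells it was at 83.7 CPM unstimulated, at 83.2, 77.5, 181 and 250.4 CPM with LPS, and at 83.2, 81.9, 30.6 and 82.0 CPM with TNF. Both 3 h TNF libraries were the lowest of their genotype, and at 3 h of LPS the RelA-TA-KI library was above its unstimulated control while the WT library was not. Tlr8 rose by 1.23 ± 0.25 at 8 h of LPS (adjusted p = 0.00089), which became 0.26 (adjusted p = 0.3) with library totals, and its LPS response did not pass without the 8 h LPS libraries (0.60 at 3 h, adjusted p = 0.091). It fell by 1.39 ± 0.27 on the log2 scale at 3 h of TNF (adjusted p = 0.0058) and was higher again at 8 h (1.25 ± 0.27 from 3 h, adjusted p = 0.0085). Its TNF response did not pass without the 3 h TNF libraries (-0.30, adjusted p = 0.8) or with no filter on low counts (adjusted p = 0.075).

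Tlr13, the most abundant member at rest, fell with both stimuli. It was at 410.2 CPM in unstimulated WT cells, at 437, 411, 170 and 213 CPM with LPS, and at 443, 409, 294 and 306 CPM with TNF. Levels in RelA-TA-KI cells were 439 CPM unstimulated, 471, 475, 212 and 187 CPM with LPS, and at 486, 480.4, 328 and 276 CPM with TNF. All 8 libraries at 3 and 8 h lay below all others, and the LPS ones lay below the TNF ones. The log2 change was -1.16 ± 0.12 at 3 h of LPS (adjusted p = 2.8e-06) and -0.54 ± 0.11 at 8 h of TNF (adjusted p = 0.0027).

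Between 3 and 8 h of LPS, 6 of the 10 genes rose further and Tlr2 fell, where 51.3% of all genes passed (26.6% up and 24.7% down). With library totals 5 rose and 2 fell, as Tlr13 was then also called lower (-0.34, adjusted p = 0.042, edgeR). The rises were 2.61 for Tlr9, 2.57 for Tlr1, 2.21 for Tlr3, 1.65 for Tlr6 and 1.20 for Tlr7. The call of Tlr8 (0.63) lay at the threshold (adjusted p rounded to 0.05) and was lost with library totals (adjusted p = 0.47), with no filter (0.21) and without any 1 of the other conditions (0.056 to 0.067). Between 3 and 8 h of TNF, Tlr3, Tlr8 and Tlr7 rose (2.49, 1.25 and 0.47) and no member fell, where 15.7% of all genes passed (8.71% up and 7.0% down).

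LPS and TNF were compared with each other at matched times, as the mean of the 4 differences. Tlr3 (1.56 ± 0.14), Tlr9 (1.37 ± 0.10), Tlr8 (0.87 ± 0.13), Tlr7 (0.79 ± 0.06), Tlr1 (0.49 ± 0.13) and Tlr6 (0.45 ± 0.13) were higher with LPS and Tlr13 was lower (-0.32 ± 0.06), where 48.9% of all genes passed (23.7% up and 25.2% down). The adjusted p of these 7 ran from 1.5e-07 to 0.015. By time, 0, 0, 5 and 7 members were called, against 0.0442%, 1.2%, 31.3% and 58.4% of all genes, and at 8 h the difference was 3.68 for Tlr9, 3.02 for Tlr3, 2.12 for Tlr1 and 1.90 for Tlr7. Without the 8 h LPS libraries Tlr1 (-0.06) and Tlr6 (0.12, adjusted p = 0.69) did not pass. Tlr9 was then at 0.60 and Tlr7 at 0.42. Leaving out the 8 h TNF libraries drops the same 8 h difference from the mean, so it is no separate check (-0.06, 0.12, 0.60 and 0.42). Neither Tlr1 nor Tlr6 passed with library totals (0.18 and 0.14) or with no filter (adjusted p = 0.055 and 0.057). The difference did not pass for Tlr2 (0.30 ± 0.21, adjusted p = 0.27), Tlr4 (0.17 ± 0.13) or Tlr5 (0.17 ± 0.33). For Tlr2 it passed when the unstimulated libraries were left out (0.27, adjusted p = 0.02, edgeR). The sign of the Tlr2 difference varied with time. It was -0.09, 0.81, 0.87 and -0.40 at 0.5, 1, 3 and 8 h, and none of these passed.

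RelA-TA-KI cells held less Tlr2 and more of several other receptor transcripts than WT cells. Over the 9 conditions Tlr2 was lower (-2.24 ± 0.21, adjusted p = 5.4e-05) and Tlr8 (0.52 ± 0.12, adjusted p = 0.011), Tlr4 (0.51 ± 0.12, adjusted p = 0.015), Tlr9 (0.40 ± 0.09, adjusted p = 0.0066) and Tlr7 (0.24 ± 0.06, adjusted p = 0.012) were higher, by edgeR. These are 5 of 10, where 19.7% of all genes passed, 10.3% up and 9.46% down. The others did not pass, with 0.27 ± 0.13 for Tlr1, 0.24 ± 0.22 for Tlr5, 0.24 ± 0.12 for Tlr6, 0.10 ± 0.05 for Tlr13 and -0.13 ± 0.13 for Tlr3. Without the 3 h LPS libraries Tlr1 and Tlr6 passed (0.37 and 0.36, adjusted p = 0.037 and 0.019), as did Tlr13 without the 8 h LPS libraries (0.14, adjusted p = 0.042). The median over the 10 genes was 0.24 against -0.0047 over all genes. Tlr2 was lower in RelA-TA-KI in 9 of 9 pairs, by 1.42-fold unstimulated and by up to 7.44-fold, and it stood at place 49 of 11308 genes from the lowest log2 difference. Tlr8 and Tlr9 were higher in 9 of 9 pairs and Tlr4 and Tlr7 in 8 of 9. Of the members not called, Tlr1 was also higher in 8 of 9 pairs, and Tlr5, Tlr6 and Tlr13 in 7 of 9. Tlr3 was lower in 7 of 9. The share of all genes with such pair counts is not given here, so the counts do not set the called members apart. With no filter on low counts the calls of Tlr4 and Tlr8 were lost (adjusted p = 0.061 and 0.051).

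**Figure D4:**
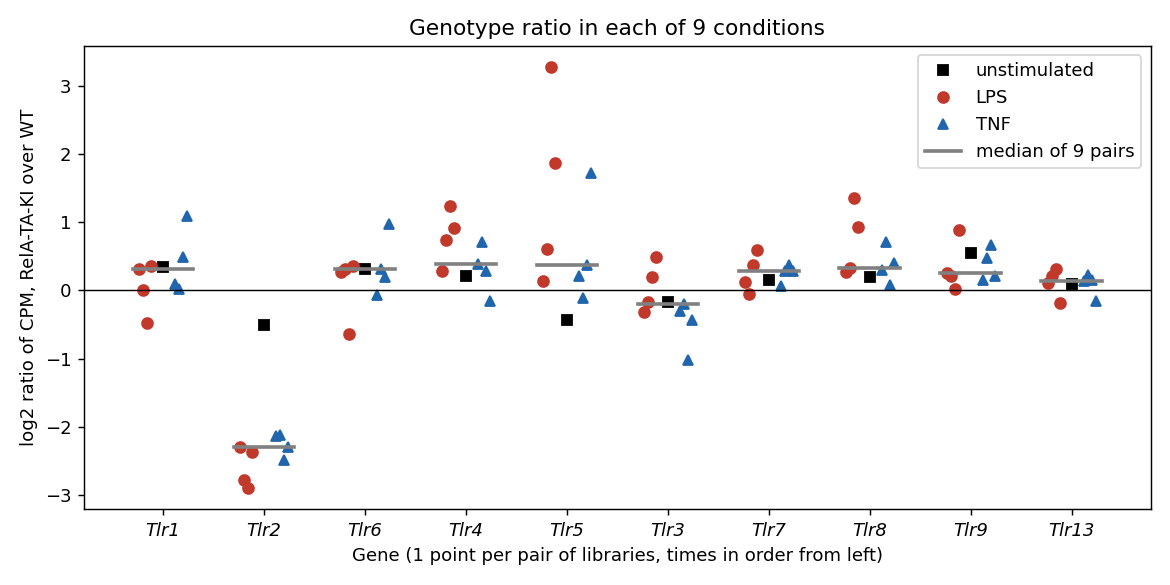
Log2 ratio of CPM, RelA-TA-KI over WT, for each gene in each of 9 conditions, where black squares are unstimulated, red circles LPS, blue triangles TNF and grey bars the median. The Tlr2 points all lie below 0, with the unstimulated pair nearest to it, and the Tlr8 and Tlr9 points all lie above 0.

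By stimulus, the same direction was called after LPS for Tlr2 (-2.59 ± 0.11, adjusted p = 4.5e-07), Tlr4 (0.79 ± 0.16, adjusted p = 0.012) and Tlr8 (0.72 ± 0.17, adjusted p = 0.025), where 9.99% of all genes passed (5.47% up and 4.52% down). The values that did not pass were 0.61 for Tlr5, 0.40 for Tlr9, 0.26 for Tlr7, 0.16 for Tlr3, 0.11 for Tlr13, 0.08 for Tlr6 and 0.07 for Tlr1. The Tlr4 call was lost without the 8 h LPS libraries (adjusted p = 0.075), and the Tlr8 call without the 3 h (0.51, adjusted p = 0.068) or 8 h LPS libraries (adjusted p = 0.12) and with no filter (0.095). After TNF Tlr2 was called (-2.26 ± 0.11, adjusted p = 2.1e-06) and no other member, where 5.32% of all genes passed (2.41% up and 2.91% down). The values for Tlr1, Tlr6, Tlr8, Tlr9, Tlr4, Tlr7, Tlr5 and Tlr13 were 0.46, 0.39, 0.38, 0.37, 0.31, 0.25, 0.16 and 0.09. The value for Tlr3 after TNF was -0.48 ± 0.15 (adjusted p = 0.1), and it passed with library totals (-0.56, adjusted p = 0.044) and without the 8 h LPS libraries (-0.47, adjusted p = 0.047).

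The genotype differences after LPS and after TNF were compared directly. No gene of 11308 passed in edgeR (0.0%), 578 had an unadjusted p under 0.05, and DESeq2 called 4, none of them a member. The values were -0.33 ± 0.15 for Tlr2, 0.48 ± 0.22 for Tlr4, 0.34 ± 0.24 for Tlr8 and 0.64 ± 0.20 for Tlr3, and for Tlr5, Tlr1, Tlr6, Tlr9, Tlr13 and Tlr7 they were 0.44, -0.39, -0.30, 0.03, 0.02 and 0.02. For the genotype difference at 3 and 8 h minus that at 0.5 and 1 h, 0.398% of all genes and no member passed (-0.19 ± 0.17 for Tlr2, 0.30 ± 0.10 with adjusted p = 0.25 for Tlr7). The other members were at 1.20 ± 0.53 (Tlr5), 0.34 (Tlr8), 0.27 (Tlr1), 0.21 (Tlr9), 0.20 (Tlr3), 0.05 (Tlr6), 0.04 (Tlr4) and -0.13 (Tlr13).

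The deficit of Tlr2 in RelA-TA-KI was greater in stimulated than in unstimulated cells by -1.92 ± 0.24 on the log2 scale. This comparison was added after the data were seen and rests on 1 unstimulated pair. Tlr2 had the lowest p of all 11308 genes (5.6e-06), which after adjustment missed the threshold (0.064). No gene was called by edgeR (0.0%), 200 had an unadjusted p under 0.05, and Tlr2 was the 1 gene called by DESeq2 (adjusted p = 7.9e-07) and with no filter (0.00023). The other members were at 0.81 ± 0.56 (Tlr5), 0.36 (Tlr8), 0.35 (Tlr4), 0.11 (Tlr7), 0.0072 (Tlr13), 0.0014 (Tlr3), -0.08 (Tlr1 and Tlr6) and -0.17 (Tlr9), none of which passed.

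Markers of other cells also differed between the genotypes. Of the neutrophil markers tested, 6 of 8 were lower in RelA-TA-KI, with summed levels of 130 to 279 CPM in WT and 63.1 to 193 in RelA-TA-KI (S100a8 -0.90, Mpo -1.97), where 9.46% of all genes were called lower and 10.3% higher, and Ly6g was at or below 0.92 CPM in all libraries. All 3 stromal markers tested were lower (sums of 98.0 to 189 and 13.7 to 71.4 CPM, with Lum at 0 in every library), as were 3 of 5 conventional dendritic markers (6.43 to 30.0 and 2.73 to 26.9 CPM). Of the plasmacytoid dendritic markers 2 of 3 tested were higher in RelA-TA-KI, Irf8 (0.49, adjusted p = 0.04) and Tcf4 (0.34, adjusted p = 0.0017), and 1 of 3 with library totals. Of 10 macrophage markers 4 were higher (Fcgr1 0.92, Cd68 0.36, Itgam 0.34, Mrc1 0.20) and 2 lower (Csf1r -0.24, Lyz2 -0.18), and their sums ran from 11670 to 15920 CPM in WT and 11660 to 17390 in RelA-TA-KI. The part of all these markers in the genotype differences of Tlr2, Tlr4, Tlr7, Tlr8 and Tlr9 was not tested.

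Other genes of the pathway were taken from fixed lists, whose counts are to be read against the shares of all genes called: 35.8% up and 36.4% down with LPS, 16.7% and 13.6% with TNF, and 10.3% and 9.46% for the genotype. Of 11 accessory proteins and chaperones, 7 rose and 1 fell with LPS and 6 rose with TNF (with library totals 5 up and 4 down, and 4 up and 2 down), with median LPS changes of 1.25 for the list and -0.20 for all genes. Ly86, whose product MD-1 pairs with the receptor-like CD180, rose by 3.64 and Cd180 by 2.26 at 8 h of LPS, Cd14, the LPS co-receptor, by 2.60 at 1 h, while Cnpy3, a chaperone of folding receptors, fell by 0.67. In RelA-TA-KI Cd180 (0.58), Cd36, a scavenger receptor (0.57), and Unc93b1, the chaperone that carries nucleic acid receptors to endosomes (0.15), were higher and Ly86 was lower (-0.44); with library totals 2 were higher and 1 lower. All 5 endosomal proteases, which trim the nucleic acid receptors, were higher with LPS, with Ctss 2.82-fold higher, but with library totals 1 was higher and 3 were lower. Of these proteases 4 were higher in RelA-TA-KI (Ctsl 0.62, Lgmn 0.44), and 3 with library totals.

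Among adaptors, 4 of the 5 tested rose with LPS and with TNF (3 up and 1 down for each with library totals), led with LPS by Myd88 (3.27) and Pik3ap1 (2.54, an adaptor of PI3 kinase). In RelA-TA-KI Ticam1, which encodes TRIF, was higher (0.42) and Myd88 lower (-0.24). Of 12 kinases and ubiquitin ligases, 6 rose and 3 fell with LPS and 5 rose with TNF, and with library totals 5 rose and 6 fell with LPS and 5 rose and 1 fell with TNF. The ligase gene Peli1 had the largest rise with LPS (4.63 at 3 h) and Tab1, a partner of the kinase TAK1, the largest fall (-1.11 at 3 h). None was higher in RelA-TA-KI and 3 were lower, Traf3 (-0.47), Ikbke (-0.44) and Irak2 (-0.39), and with library totals 4 were lower. Of 6 inhibitors, 3 rose and 2 fell with LPS (2 and 4 with library totals), led by Tnfaip3, which encodes the ubiquitin-editing enzyme A20 (4.97). Il1rl1, a receptor for IL-33, was among those that fell and had no reads in either library at 8 h of LPS, and 1 inhibitor rose and 2 fell with TNF (1 and 4 with library totals). Tnip1, which encodes a binding partner of A20, was lower in RelA-TA-KI (-0.72) and no inhibitor was higher.

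The genes whose log2 CPM followed each member most closely over the 18 libraries are given as a description, since libraries share stimuli and scaling. Among members, Tlr1 and Tlr6 had r = 0.98 and Tlr7 and Tlr9 r = 0.98, and Tlr3 and Tlr13 were the most opposed (r = -0.89). Of 9913 genes compared, those nearest to Tlr3 were Samhd1, Rnf114 and Usp25 (each r = 0.99), to Tlr9 Sgcb, Ociad1 and Fcer1g (each r = 0.99), and to Tlr13 Snx30, Snx8 and Rab3il1 (0.98, 0.98 and 0.97). Tlr1 was followed by Prkcd (0.98), Tlr6 and Eva1b (0.97), Tlr6 by Tlr1, Npepps and Clec4a1 (0.97 each for the latter pair), and Tlr7 by Tlr9, Casp8 and Pik3ap1 (0.98 and 0.97 for the latter pair). The nearest genes to Tlr2 were less close, Spata13, S100a8 and H2-Eb1 (0.90, 0.89 and 0.88), as were those of Tlr4, Irf2bpl, Oxr1 and Rell1 (0.92, 0.89 and 0.82). Tlr8 had Pstpip1, Wdfy2 and Cd300lf (0.93, 0.92 and 0.91) and Tlr5 had Rhobtb1, Bmp2k and Sh2d1b1 (0.93, 0.93 and 0.92).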

How the data were processed

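Polyadenylated RNA was made into libraries with a stranded KAPA kit and sequenced in single-end mode at 50 bases, per the labels' protocols. The authors deposited raw counts per gene, without normalization, in mm10 coordinates. The submitters' processing notes name cutadapt 1.12, STAR, featureCounts 1.5.0 and DESeq2; the choice of strand setting, multi-mapping treatment and annotation is not given in the sources used here. Symbols were matched for 45143 of 45706 identifiers, and no member shares exonic positions with another row of the table.

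Counts were tested in R 4.3.3 with edgeR 4.0.16: TMM, robust quasi-likelihood and Benjamini-Hochberg over all 11308 genes that passed filterByExpr (minimum count 10, minimum total 15), at a threshold of 0.05. With 1 library per genotype and condition, genotype and condition entered additively (8 residual degrees of freedom), and the residual is how the genotype pairs differ. Genotype effects by stimulus or phase left 6. Responses are F tests over 4 times, followed by contrasts at each time. Standard errors are the log2 change divided by the root of F. CPM values rest on TMM-scaled sizes of 3096290 to 8083909, and a prior count of 0.5 was added for log2 CPM. Alternatives were other scalings and filters, DESeq2 1.42.0, limma 3.58.1 (voom) and leaving out each condition with both libraries. The scripts were tested on simulated counts with few changed genes and a fixed spread. These data differ from that setting, so the test does not measure error rates here. All 10 members were tested in every comparison. Genes alike are the 3 highest Pearson correlations among named genes with a mean log2 CPM of at least 1, and up to 4 genes are named from a pathway list in a comparison, from those called with the largest change in each direction. Members, lists and tests were chosen with earlier results of these data known.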

Additional observations from a re-analysis of the deposited data

How the results depend on the processing

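Of 151 single-gene values, direction and call were kept in 149 under DESeq2, 148 under limma-voom, 141 with no filter, 130 with library totals, and 151 with DESeq2 size factors or a filter of 1 CPM in 9 libraries. With library totals the largest LPS change of Tlr8 was at 1 h (-0.32). The change from 3 to 8 h of LPS was then -0.23 for Tlr4, which did not pass, and -0.34 for Tlr13, which did (adjusted p = 0.042, edgeR). The LPS minus TNF difference was -0.0072 for Tlr2, -0.14 for Tlr4 and -0.13 for Tlr5. Genotype values near 0 that changed sign with library totals were, after LPS, Tlr1 (-0.030) and Tlr6 (-0.017), late minus early, Tlr4 (-0.063) and Tlr6 (-0.057), and stimulated minus unstimulated, Tlr3 (-0.038, and -0.016 by DESeq2) and Tlr13 (-0.020). Library totals carry the shift of all genes given above. Members called for the genotype effect numbered 3 with no filter (5 as reported), and after TNF 2 with library totals (1 as reported). Between stimuli the genotype effect was called for 3 genes with no filter and 4 by DESeq2 (0 as reported), and between late and early times for 29 with library totals, 147 with no filter and 124 by DESeq2 (45 as reported). For stimulated minus unstimulated cells it was called for 1 gene, Tlr2, with no filter and by DESeq2. The cause of these changes was not tested.

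Leaving out 1 condition at a time gave these ranges. Members called for the TNF response ran from 4 (without 8 h of TNF) to 9 (without 8 h of LPS), all genes from 1100 to 4201, and all genes for LPS minus TNF from 1932 to 5970, lowest without 8 h of TNF. Genes called for the genotype after LPS ran from 581 (without 3 h of LPS) to 1146 and members from 1 (without 8 h of LPS) to 3. After TNF they ran from 285 (without 8 h of TNF) to 912 (without 8 h of LPS) and members from 1 to 2. The genotype difference between stimuli ran from 0 to 1 gene, late minus early from 13 (without 0.5 h of LPS) to 76 (without 8 h of LPS), and stimulated minus unstimulated from 0 to 1, which was Tlr2. The largest TNF change ran from -0.30 (without 8 h of TNF) to 2.70 for Tlr3 and from -0.39 to 0.092 (without 3 h of TNF) for Tlr7. The LPS minus TNF mean ran from -0.063 to 0.69 for Tlr1 and from -0.10 to 0.34 for Tlr5, both lowest without 8 h of LPS. Genotype values that did not pass and whose range spans 0 were, after LPS, Tlr1 (-0.067 to 0.25) and Tlr6 (-0.051 to 0.32), between stimuli Tlr7 (-0.10 to 0.11), Tlr9 (-0.22 to 0.16) and Tlr13 (-0.059 to 0.11), late minus early Tlr4 (-0.19 to 0.29), Tlr6 (-0.18 to 0.31) and Tlr9 (-0.025 to 0.40), and stimulated minus unstimulated Tlr1 (-0.20 to 0.013), Tlr3 (-0.059 to 0.079), Tlr6 (-0.20 to 0.041) and Tlr13 (-0.020 to 0.062).

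Depth limits Tlr5, with 1 to 38 reads per library, and 1 library per genotype and condition leaves the genotype difference within a single condition without a test.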
